A study of Mus musculus with 12 samples.

Results

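The 9 genes described here, Peg3, H19, Igf2, Dlk1, Mest, Plagl1, Meg3, Grb10 and Ndn, are imprinted genes known for their part in growth. They are 9 of 18193 genes with a usable symbol on the array and hold 36 of its 45037 probe sets other than controls. The list was chosen on the difference between hair follicle stem cells and total keratinocytes, in which Peg3 was among the genes with the largest values. That difference is therefore described below and not tested. All probe sets annotated to a member were read.

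The data were 12 Affymetrix arrays of epithelial cells sorted from the back skin of female mice of postnatal day 72 to 74 (strain mixed from C57BL/6 and CD1), at the passage of hair follicles from their second rest to their next growth phase. The mice were TßRII-cKO (cKO) or TßRII-Het (Het), a conditional knockout of Tgfbr2, which encodes the type II receptor for TGF-beta, and its control, and were not treated. Cells of both genotypes were sorted with Rosa26-YFP, P-cadherin and CD34 into cells of the hair germ (HG), cells of the bulge and total keratinocytes, in set 2 and set 1. HG and bulge cells are the hair follicle stem cells (HFSCs). In the labels, cKO HG and bulge cells are aberrantly quiescent in set 2 and quiescent in set 1, and Het HG and bulge cells are activated in set 2 and quiescent in set 1. Each combination of genotype, fraction and set is 1 array. The 12 arrays thus make 10 labelled groups. Total keratinocytes of a genotype have 2 arrays, and the other 8 groups have 1 array each. The driver of the conditional deletion and the number of mice behind an array are not given in the sources used here.

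An imprinted gene is read mainly from the copy of 1 parent, a choice set by DNA methylation that the germ line of 1 parent leaves at a control region. Peg3, Igf2, Dlk1, Mest, Plagl1 and Ndn are known as genes of the paternal copy, and H19, Meg3 and, in most tissues, Grb10 as genes of the maternal copy. Many of them are strongly transcribed in the fetus, fall after birth and have been described in stem cells of adult tissues. The arrays do not separate the parental copies, so every value here is a sum over both.

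H19 and Igf2 are neighbours on chromosome 7, which also holds Peg3 and Ndn elsewhere, and Dlk1 and Meg3 are neighbours on chromosome 12. Mest lies on chromosome 6, Plagl1 on chromosome 10 and Grb10 on chromosome 11. Of the 9 genes, 8 matched RefSeq promoter windows of build GRCm38.p6, 15 windows of 300 bases in all. CpG is the substrate of imprinting marks, and its part in the values below was not tested. In Peg3, Meg3 and Ndn the 4 HG values all lay below the 4 bulge values, as in 12.1% of the genes tested between these fractions. Plagl1 differed the other way. The windows shown are of these genes. They are chr7:6730370-6730669 on the minus strand for Peg3, chr12:109540746-109541045 on the plus strand for Meg3, chr7:62348027-62348326 on the plus strand for Ndn and chr10:13090582-13090881 on the plus strand for Plagl1, each 5′ to 3′ along its gene with CpG in capitals.
Peg3: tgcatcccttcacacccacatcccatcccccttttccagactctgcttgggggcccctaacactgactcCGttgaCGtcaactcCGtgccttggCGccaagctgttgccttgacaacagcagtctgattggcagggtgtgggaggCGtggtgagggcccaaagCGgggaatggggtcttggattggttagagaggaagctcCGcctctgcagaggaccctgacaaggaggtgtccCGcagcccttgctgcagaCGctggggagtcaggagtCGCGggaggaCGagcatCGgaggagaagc
Meg3: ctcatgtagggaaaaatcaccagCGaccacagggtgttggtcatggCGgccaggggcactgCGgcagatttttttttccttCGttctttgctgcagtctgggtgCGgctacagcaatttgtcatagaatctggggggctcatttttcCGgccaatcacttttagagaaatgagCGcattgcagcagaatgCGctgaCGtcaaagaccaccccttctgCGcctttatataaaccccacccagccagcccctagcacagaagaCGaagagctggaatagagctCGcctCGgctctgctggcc
Ndn: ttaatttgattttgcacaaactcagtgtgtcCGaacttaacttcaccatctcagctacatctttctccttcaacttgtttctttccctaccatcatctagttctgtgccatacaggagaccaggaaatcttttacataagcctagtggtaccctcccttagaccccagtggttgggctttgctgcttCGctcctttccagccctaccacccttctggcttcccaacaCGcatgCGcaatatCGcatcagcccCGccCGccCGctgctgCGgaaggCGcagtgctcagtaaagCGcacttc
Plagl1: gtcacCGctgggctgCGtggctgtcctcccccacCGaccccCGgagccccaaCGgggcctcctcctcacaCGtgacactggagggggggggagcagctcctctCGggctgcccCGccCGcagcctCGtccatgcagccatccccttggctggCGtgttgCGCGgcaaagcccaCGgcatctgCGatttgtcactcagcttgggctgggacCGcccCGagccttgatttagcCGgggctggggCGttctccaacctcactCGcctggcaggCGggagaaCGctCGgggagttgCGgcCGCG

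The Plagl1 window held 26 CpG, the Peg3 and Meg3 windows 13 each and the Ndn window 11, beside a median of 7 and an upper quartile of 20 over 32851 windows of the same table. A second Meg3 window held 1 CpG, and the Grb10 windows held 45 and 9. The letters GGGGCCCC, the middle of the GC-rich site known for the Plagl1 protein and the same on both strands, occurred in the Peg3 window from base 50 on and in none of the other 14 windows of the members, against 1.08% of all windows. The YY1 core AANATGG, searched on both strands, occurred in 1 window each of Igf2 and Grb10, against 16.1% of all windows. These are descriptions of letters in the windows and not of binding.

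Values are the deposited MAS5 signals on the log2 scale, with values under the floor of 4.37 set to it. The pooled median of all arrays was 6.40, and a gene was tested when it exceeded this on at least 2 arrays of a fit. Of the 36 probe sets of the members, 20 passed on the 12 arrays. Each gene was read by its probe set of highest mean signal. A gene rose, fell or passed where its adjusted p was under 0.05. Dlk1 exceeded the median on 1 array and was not tested. The probe set for H19 is annotated to both H19 and Mir675, the microRNA gene that lies inside H19, and is given as that probe set throughout. This left 7 of the 9 genes in the tests by gene.

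Median signals per array lay between 64.1 and 109. The sort marker Cd34 ranged over 7.65 to 8.69 on HG arrays, 14.42 to 14.79 on bulge arrays and 10.03 to 11.30 on total keratinocyte arrays. The P-cadherin gene Cdh3 ranged over 9.22 to 10.61 in HG, 8.02 to 9.10 in bulge and 9.33 to 10.07 in total keratinocytes. Defining keratinocyte genes (8 of 8 measured, such as Krt5 and Krt14) averaged 13.13 in the Het HG cells of set 2 and between 14.05 and 14.49 on the other 11 arrays. Tgfbr2 did not check the genotypes, because its probes are not placed relative to the deleted part (cKO minus Het 0.24, limma adjusted p = 0.67). Dissociation stress genes were highest in the cKO total keratinocytes (13.97) and Het bulge cells (13.37) of set 2, against 10.84 to 12.51 elsewhere.

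**Figure D1:**
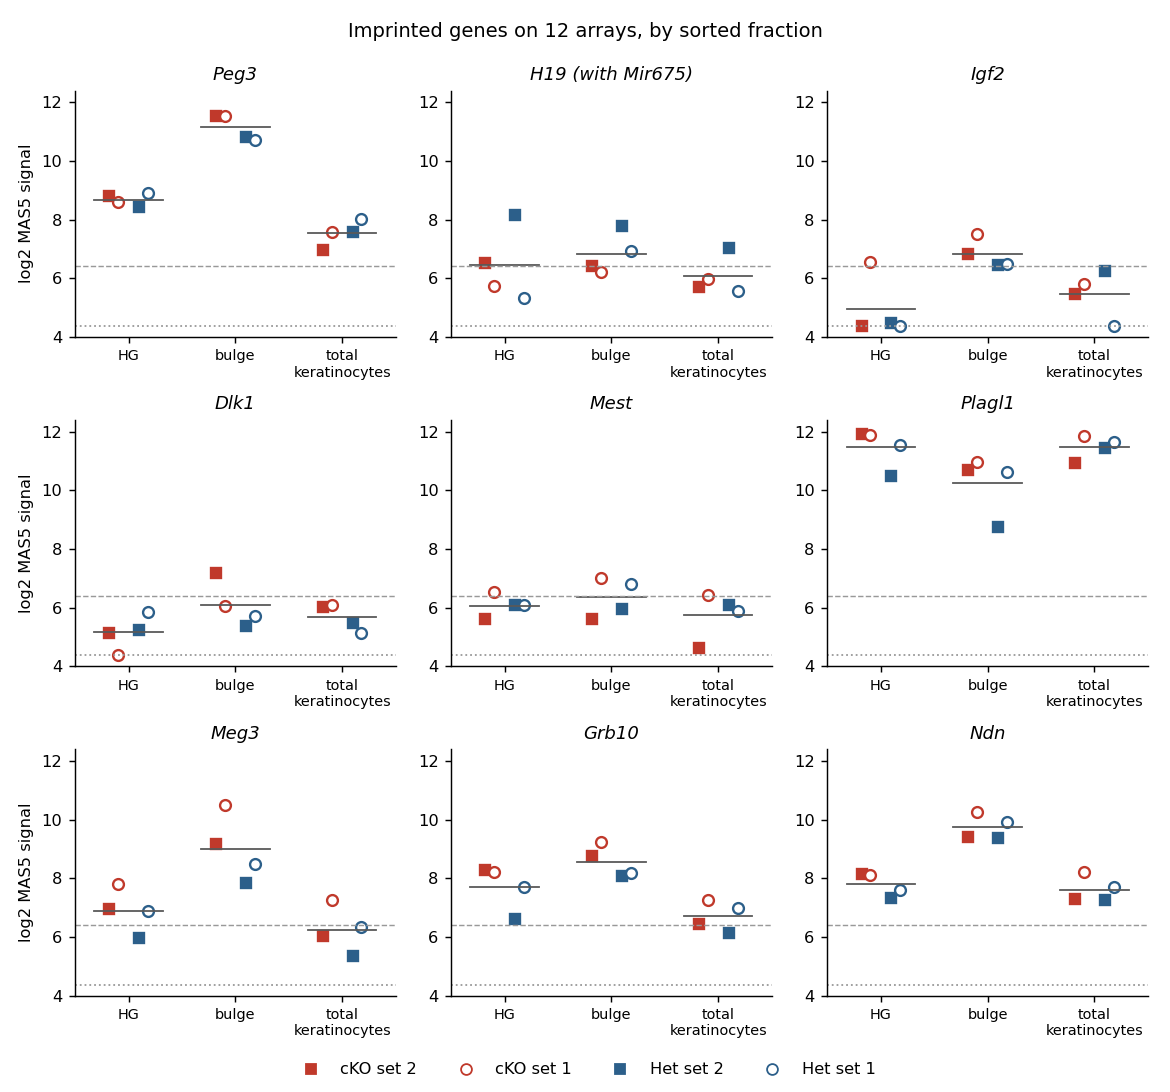
Log2 MAS5 signal of each imprinted gene on 12 arrays by fraction (squares set 2, circles set 1, red cKO, blue Het; horizontal bar, mean of 4 arrays; dotted line, floor; dashed line, pooled median). Peg3, Meg3 and Ndn show the 4 bulge arrays above all others, Plagl1 shows its lowest value in Het bulge cells of set 2, and Dlk1 lies under the dashed line on 11 of 12 arrays.

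Bulge cells carried the highest signals of Peg3, Meg3 and Ndn and the lowest of Plagl1. Peg3, a zinc finger protein known for its part in fetal growth, was low in HG and total keratinocytes and high in bulge cells. On HG arrays it read 8.81 in cKO set 2, 8.59 in cKO set 1, 8.41 in Het set 2 and 8.89 in Het set 1. On bulge arrays it read 11.53 and 11.52 in cKO sets 2 and 1 and 10.82 and 10.72 in Het sets 2 and 1. On total keratinocyte arrays it read 6.95 and 7.57 in cKO sets 2 and 1 and 7.58 and 8.01 in Het sets 2 and 1. The 3 fractions did not overlap, with bulge cells highest and total keratinocytes lowest. In linear units the Peg3 signal was 341 to 476 in HG, 1684 to 2967 in bulge and 124 to 257 in total keratinocytes.

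Meg3, a long noncoding RNA, had the same high fraction. On HG arrays it read 6.97 and 7.79 in cKO sets 2 and 1 and 5.96 and 6.88 in Het sets 2 and 1. On bulge arrays it read 9.19 and 10.49 in cKO sets 2 and 1 and 7.84 and 8.50 in Het sets 2 and 1. On total keratinocyte arrays it read 6.02 and 7.26 in cKO sets 2 and 1 and 5.36 and 6.34 in Het sets 2 and 1. Each bulge array was above every HG and every total keratinocyte array, and HG and total keratinocytes overlapped.

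Ndn encodes necdin, a MAGE family protein known to restrain cell division. It read 8.13 on both cKO HG arrays and 7.32 and 7.62 in Het HG cells of sets 2 and 1. Bulge values were 9.41 and 10.28 in cKO sets 2 and 1 and 9.39 and 9.94 in Het sets 2 and 1. In total keratinocytes it read 7.29 and 8.22 in cKO sets 2 and 1 and 7.25 and 7.70 in Het sets 2 and 1. The bulge arrays were again apart, and HG and total keratinocytes covered nearly the same range.

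Plagl1, a zinc finger transcription factor known to arrest the cell cycle, ran the other way. HG cells gave 11.93 and 11.88 in cKO sets 2 and 1 and 10.48 and 11.56 in Het sets 2 and 1. Bulge cells gave 10.68 and 10.98 in cKO sets 2 and 1 and 8.73 and 10.62 in Het sets 2 and 1. Total keratinocytes gave 10.94 and 11.87 in cKO sets 2 and 1 and 11.46 and 11.66 in Het sets 2 and 1. The fractions overlapped in every pairing, but within each genotype and set the bulge array was below the HG array and below the total keratinocyte array. All these values come from 1 probe set, which averaged 11.07 over the arrays. The other Plagl1 probe sets read far lower. They averaged 5.47 (above the pooled median on 2 arrays) and 4.43 (at the floor on 10 arrays), so the level of Plagl1 depends on the probe set.

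Grb10, an adaptor protein that restrains signalling by the insulin and IGF receptors, read 8.29 and 8.21 on cKO HG arrays of sets 2 and 1 and 6.60 and 7.71 on Het HG arrays. Its bulge values were 8.75 and 9.25 in cKO sets 2 and 1 and 8.09 and 8.20 in Het sets 2 and 1. Its values in total keratinocytes were 6.46 and 7.27 in cKO sets 2 and 1 and 6.13 and 6.99 in Het sets 2 and 1. HG values lay between the other fractions and overlapped both, while bulge cells and total keratinocytes did not overlap.

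The growth factor Igf2 was near the floor in most HG cells. It read 4.37 in cKO HG of set 2, 6.55 in cKO HG of set 1, 4.46 in Het HG of set 2 and 4.37 in Het HG of set 1. Bulge values were 6.81 and 7.49 in cKO sets 2 and 1 and 6.46 and 6.50 in Het sets 2 and 1. Total keratinocytes gave 5.44 and 5.80 in cKO sets 2 and 1 and 6.23 and 4.37 in Het sets 2 and 1. Bulge cells were above total keratinocytes on all arrays, and the cKO HG array of set 1 reached into the bulge range. Igf2 passed the filter through the 4 bulge arrays and this HG array, the side where it is high.

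Dlk1, a membrane protein related to Notch ligands, ranged over 4.37 to 5.86 in HG, 5.37 to 7.18 in bulge and 5.14 to 6.09 in total keratinocytes. Mest, an enzyme of the alpha/beta hydrolase family, ranged over 5.59 to 6.53 in HG, 5.62 to 7.01 in bulge and 4.62 to 6.42 in total keratinocytes, and passed the filter on 4 arrays, all of set 1. The probe set annotated to both H19 and Mir675 ranged over 5.34 to 8.16 in HG, 6.22 to 7.76 in bulge and 5.57 to 7.03 in total keratinocytes. For these 3 the fractions overlapped in every pairing.

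The mean of HG and bulge, taken as HFSCs, exceeded total keratinocytes by 2.39 for Peg3 (SE 0.23 on the log2 scale, 12 arrays, with genotype and set as a block), the value behind the choice of the list. The same difference was 1.71 for Meg3 (SE 0.23), 1.43 for Grb10 (SE 0.24), 1.16 for Ndn (SE 0.19), 0.46 for Mest (SE 0.31), 0.41 for Igf2 (SE 0.41) and −0.63 for Plagl1 (SE 0.26). Taken apart, HG minus total keratinocytes was 1.15 for Peg3, 0.99 for Grb10, 0.65 for Meg3, 0.19 for Ndn and −0.02 for Plagl1. Bulge minus total keratinocytes was 3.62 for Peg3, 2.76 for Meg3, 2.14 for Ndn, 1.86 for Grb10 and −1.23 for Plagl1. The bulge arrays thus carried most of the HFSC difference for Peg3, Meg3 and Ndn, and Grb10 also had 4 of 4 HG arrays above their total keratinocyte arrays. These values have no test, because the list was chosen on them. The same holds for the members whose HG or bulge arrays did not overlap total keratinocytes. How many of all genes were apart from total keratinocytes in this way was not counted.

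The comparison of HG with bulge cells asks how the stem cell compartments of 1 follicle differ. It was not itself used to choose the list, but it draws on the same HG and bulge arrays as the contrast that was. The Peg3 rise over total keratinocytes was 3.62 in bulge and 1.15 in HG, so the Peg3 test is not apart from the choice. Igf2 entered the comparison of HG with bulge through its bulge arrays and is given apart. Of the other 6 genes tested, Peg3, Meg3, Ndn and Grb10 fell in HG relative to bulge, Plagl1 rose and Mest did not pass the test (limma on 8 arrays, genotype and set as a block, adjusted over 12589 genes). Over all genes tested, 10.7% fell and 8.44% rose. The median difference over the 6 genes was −1.41, against −0.02 over all genes. The 6 genes include Peg3, so this median is not apart from the choice of the list either.

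Peg3 averaged 8.68 ± 0.22 in HG and 11.15 ± 0.44 in bulge (SD, n = 4 arrays of 4 conditions), a limma difference of −2.47 (SE 0.21, adjusted p = 8.73e-05). Meg3 averaged 6.90 ± 0.75 in HG and 9.01 ± 1.13 in bulge (SD, n = 4), a limma difference of −2.11 (SE 0.27, adjusted p = 8.43e-04). Ndn averaged 7.80 ± 0.40 in HG and 9.76 ± 0.43 in bulge (SD, n = 4), a limma difference of −1.95 (SE 0.23, adjusted p = 5.76e-04). In all 3, HG was lower within 4 of 4 conditions, with differences of −2.93 to −1.82 for Peg3, −2.70 to −1.62 for Meg3 and −2.32 to −1.28 for Ndn. Plagl1 averaged 11.46 ± 0.68 in HG and 10.25 ± 1.03 in bulge (SD, n = 4), with HG higher in 4 of 4 conditions and a limma difference of 1.21 (SE 0.18, adjusted p = 0.00194). Its call rests on the pairing of conditions, with adjusted p = 0.114 by limma without the block.

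Grb10 was lower in HG by a limma difference of −0.87 (SE 0.26, adjusted p = 0.0468), in 4 of 4 conditions. Igf2 was lower in HG in 4 of 4 conditions, by a limma difference of −1.88 (SE 0.48, adjusted p = 0.0260). It passed the filter on 4 of 4 bulge arrays and 1 HG array, the side where it is high, so the choice of what was tested bears on its call. Its size depends on the floor, which 2 HG arrays were at, and was −0.37 with the floor at the pooled median (limma adjusted p = 0.22). The Igf2 call was also lost without Het set 1 (limma adjusted p = 0.0914), cKO set 1 (0.0631) or cKO set 2 (0.0956), and the Grb10 call without any 1 of the 4 conditions (limma adjusted p between 0.0580 and 0.167). Without the block the limma adjusted p was 0.0542 for Igf2 and 0.183 for Grb10. Mest differed by −0.28 (SE 0.41, limma adjusted p = 0.69), and the probe set annotated to H19 and Mir675 by −0.40 (SE 0.43, limma adjusted p = 0.58).

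**Figure D2:**
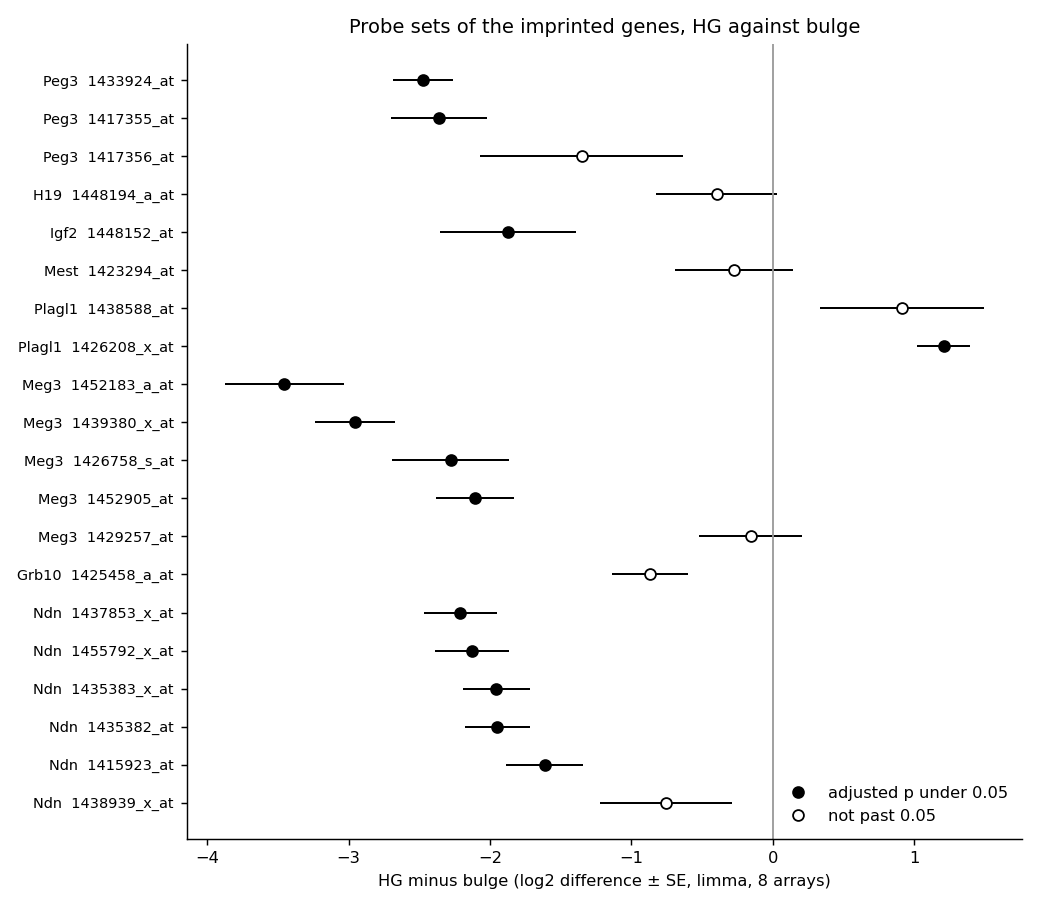
HG minus bulge difference (log2, point) with its SE (line) for the 20 probe sets of the imprinted genes that passed the filter, from limma on 8 arrays. Filled points have an adjusted p under 0.05 over all probe sets tested; 12 lie below 0, in Peg3, Igf2, Meg3 and Ndn, and 1 lies above it, in Plagl1.

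Probe sets of 1 gene mostly moved together. In limma over 26694 probe sets, 12 of the 20 of these genes fell in HG and 1 rose, against 7.42% and 7.1% of all probe sets. Of those 12, 3 (that of Igf2 and 2 of Meg3) exceeded the filter on fewer than 2 HG arrays and were tested through bulge. They were 2 of 3 for Peg3, 4 of 5 for Meg3, 5 of 6 for Ndn and 1 of 1 for Igf2, and the riser was 1 of 2 for Plagl1. The Meg3 probe sets ranged from −3.45 to −0.16, the Ndn probe sets from −2.21 to −0.75 and the Peg3 probe sets from −2.47 to −1.35. Probe sets of 1 gene share its RNA and are not replicates. The Meg3 probe set at −0.16 (limma adjusted p = 0.81) lay between 6.46 and 6.99 in HG and between 6.50 and 7.32 in bulge, so it did not show the difference that the other 4 did. At this level the only Grb10 probe set that passed the filter had limma adjusted p = 0.0551.

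Fibroblast genes moved with the bulge fraction. Of 13 measured fibroblast markers, such as Col1a1, Lum and Pdgfra, 11 fell in HG relative to bulge and none rose, with a median of −3.21. Beside this and the counts below, 10.7% of all genes tested fell and 8.44% rose. Their mean log2 signal ranged over 8.97 to 10.26 in HG, 12.24 to 13.28 in bulge and 9.58 to 10.63 in total keratinocytes. Their summed signal ranged over 12766 to 38578 in HG, 182934 to 345259 in bulge and 23551 to 54488 in total keratinocytes, with no marker at the floor on any array. Col1a2 alone lay between 11.01 and 13.09 in HG and between 15.11 and 16.31 in bulge. The part of these cells in the values of Peg3, Meg3, Ndn, Igf2 and Grb10 was not tested, and in such bulk fractions more cells of a type and more RNA per cell cannot be told apart. Bulge stem cell genes, such as Sox9 and Nfatc1, were also high in bulge, with 10 of 12 lower in HG and a median of −2.27. Their mean log2 signal ranged over 9.08 to 9.48 in HG, 11.69 to 12.15 in bulge and 9.08 to 10.05 in total keratinocytes. What the bulge cells themselves add to the values of the members was likewise not tested. Melanocyte markers ran the other way, with 8 of 9 higher in HG and 1 lower, and a mean log2 signal between 9.52 and 9.98 in HG and between 7.35 and 8.11 in bulge. Of 9 cell cycle genes tested, such as Mki67, 9 rose in HG, with a median of 2.20. Of 8 hair germ genes tested, such as Shh and Lef1, 6 rose in HG and 0 fell, with a median of 1.09. The part of the melanocyte, cell cycle or hair germ genes in the Plagl1 difference was not tested.

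**Figure D3:**
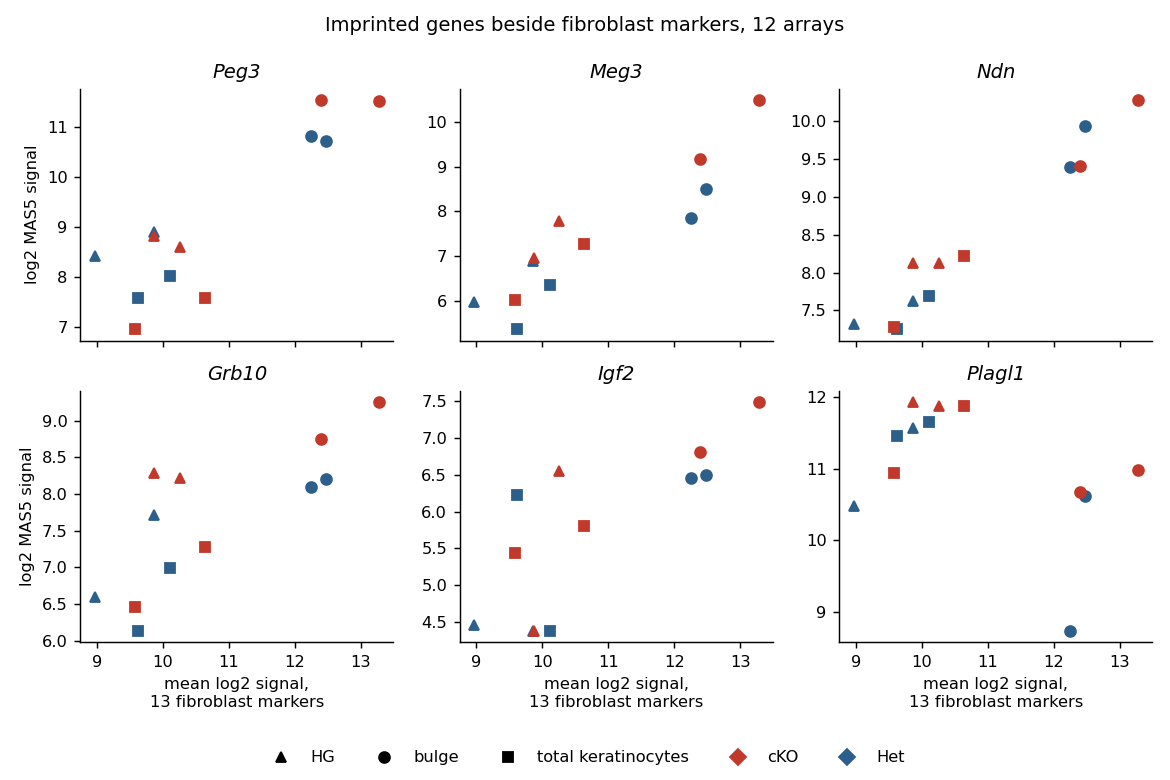
Log2 MAS5 signal of 6 imprinted genes against the mean log2 signal of 13 fibroblast markers on the same 12 arrays (triangles HG, circles bulge, squares total keratinocytes; red cKO, blue Het). The 4 bulge arrays stand apart on the marker axis at 12.24 to 13.28; Peg3, Meg3, Ndn and Grb10 are high there and Plagl1 is low.

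By condition, Peg3 was higher in HG than in total keratinocytes within 4 of 4, by 0.83 to 1.86, in values of the contrast that chose the list. Grb10 was likewise higher in HG within 4 of 4 conditions, by 0.47 to 1.83, and Meg3 by 0.53 to 0.95. Ndn was higher in HG in 2 of 4 conditions and lower in the other 2.

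The genotype comparison asks what loss of Tgfbr2 changes over all fractions. None of the 7 genes tested passed the limma test between cKO and Het on 12 arrays, and neither did the probe set annotated to H19 and Mir675. Of 12749 genes, 0 passed (0%), with 1099 at an unadjusted limma p under 0.05. By the probe set that reads each gene, Meg3, Grb10 and Ndn were higher in the cKO array of 6 of 6 pairs matched for fraction and set. How many of all genes did so was not counted. Other probe sets of these genes differed, with a range of −0.39 to 1.35 over the 5 tested for Meg3. For Ndn the range was −0.05 to 0.39 over 6.

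The Meg3 difference was 1.14 (SE 0.23, limma adjusted p = 0.27), between 0.65 and 2.00 by pair. It was 0.75 for Grb10 (SE 0.23, limma adjusted p = 0.50), between 0.29 and 1.69 by pair. It was 0.37 for Ndn (SE 0.18, limma adjusted p = 0.59), between 0.02 and 0.81 by pair. The unadjusted limma p was 3.86e-04 for Meg3, 0.00716 for Grb10 and 0.0566 for Ndn. Plagl1 differed by 0.63 (SE 0.26, limma adjusted p = 0.57; higher in 5 of 6 pairs) and Igf2 by 0.68 (SE 0.42, limma adjusted p = 0.66; higher in 4 of 6). Peg3 differed by 0.09 (SE 0.21, limma adjusted p = 0.92; higher in 3 of 6), Mest by −0.17 (SE 0.35, limma adjusted p = 0.90) and the probe set of H19 and Mir675 by −0.71 (limma adjusted p = 0.52).

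The Peg3 mean of about 0 was made of opposite directions. In bulge cells cKO exceeded Het by 0.71 in set 2 and by 0.80 in set 1. In total keratinocytes the cKO value was below the Het value, with differences of −0.63 in set 2 and −0.44 in set 1. In HG cells the difference was 0.40 in set 2 and −0.31 in set 1. This difference between fractions was not tested. Fibroblast markers averaged 12.39 in cKO against 12.24 in Het bulge cells of set 2, and 13.28 against 12.47 in set 1. They were thus higher in cKO bulge cells of both sets. In total keratinocytes they averaged 9.58 in cKO against 9.62 in Het in set 2, and 10.63 against 10.11 in set 1. In HG cells they averaged 9.87 in cKO against 8.97 in Het in set 2, and 10.26 against 9.86 in set 1. Over all fractions 12 of 13 fibroblast markers lay higher in cKO by value and none passed the test, with a median of 0.45. By value 6 of 6 endothelial, 5 of 6 immune and 8 of 8 keratinocyte genes also lay higher in cKO and 9 of 9 cell cycle genes lower, and none of them passed. Dermal papilla (4 of 4) and Schwann cell (3 of 3) genes lay higher too. Lower in cKO were 10 of 12 bulge stem cell, 6 of 8 hair germ, 7 of 9 melanocyte and 5 of 6 muscle and pericyte genes, again with none past the test. The part of these in the differences of the members was not tested.

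**Figure D4:**
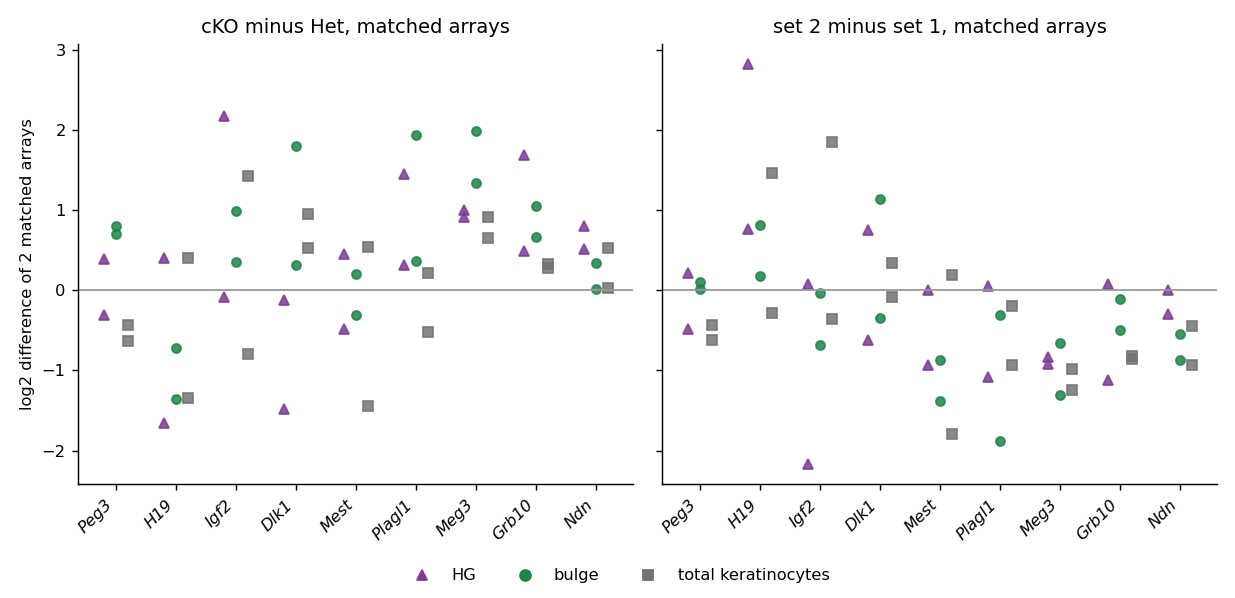
Log2 differences between matched arrays for each imprinted gene, cKO minus Het (left, 6 pairs) and set 2 minus set 1 (right, 6 pairs); triangles HG, circles bulge, squares total keratinocytes, H19 read by a probe set shared with Mir675. On the left all 6 points of Meg3, Grb10 and Ndn lie above 0 and Peg3 splits by fraction; on the right all 6 points of Meg3 lie below 0.

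Set 2 was compared with set 1 over all fractions and, because the labels give set 2 another stem cell state in Het than in cKO, within each genotype of HFSCs. In Het, set and labelled activation cannot be told apart. Over all fractions Meg3 fell in set 2 and was the only one of the 7 genes to pass. Of 12749 genes, 3.1% fell and 2% rose. The set 2 minus set 1 difference of Meg3 was −0.99 (SE 0.20, limma adjusted p = 0.0297), lower in 6 of 6 pairs and between −1.31 and −0.65 by pair. At the level of probe sets 2 of 5 for Meg3 fell, and the 5 ranged from −1.73 to 0.05. The call held in 3 of 14 other settings, with limma adjusted p between 0.0276 and 0.244. It was lost without the Het bulge (0.0687), Het total keratinocyte (0.103), cKO HG (0.0615), cKO bulge (0.0576) or cKO total keratinocyte (0.0628) pair, and held without the Het HG pair (0.0276).

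Mest exceeded the filter on arrays of set 1 alone, the side where it is high. By value the other 6 genes lay lower in set 2, with a median of −0.53 against −0.08 over all genes. Plagl1 differed by −0.73 (SE 0.22, limma adjusted p = 0.0755), Ndn by −0.51 (SE 0.17, limma adjusted p = 0.0964) and Grb10 by −0.55 (SE 0.21, limma adjusted p = 0.13). Mest differed by −0.80 (SE 0.34, limma adjusted p = 0.17), Peg3 by −0.20 (SE 0.16, limma adjusted p = 0.45) and Igf2 by −0.22 (SE 0.47, limma adjusted p = 0.80). The probe set of H19 and Mir675 lay higher in set 2 in 5 of 6 pairs, by 0.96 (SE 0.39, limma adjusted p = 0.15).

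Markers of several cell types lay lower in set 2 as well, where 3.1% of all genes fell by test and 2% rose. Fibroblast markers lay lower in 13 of 13 by value and 5 of 13 by test, with a median of −0.68. Dermal papilla markers did so in 4 of 4 by value and 3 by test (median −0.85), and muscle and pericyte markers in 5 of 6 by value and 2 by test (−0.62). Immune markers did so in 6 of 6 by value and 1 by test (−0.72). Endothelial (6 of 6, median −0.47), keratinocyte (8 of 8, −0.27) and melanocyte (8 of 9, −0.33) markers did so by value, with none past the test. Cell cycle genes lay higher in set 2 in 9 of 9 by value and 2 by test, with a median of 0.72. Hair germ genes lay higher in 7 of 8 by value (median 0.25) and Schwann cell genes in 2 of 3 (0.43), with none past the test. Bulge stem cell genes were split, with 6 higher and 6 lower, as were adipocyte genes, with 1 higher and 1 lower. The part of these in the Meg3 difference was not tested.

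In Het HFSCs Plagl1 fell in set 2, with 10.48 in HG and 8.73 in bulge of set 2, against 11.56 in HG and 10.62 in bulge of set 1. The difference was −1.49 (SE 0.26, limma adjusted p = 0.0440), beside 0.643% of 12589 genes that fell. The other 6 genes did not pass. The call of Plagl1 was lost without either Het array of set 1 (limma adjusted p = 0.41 without HG, 0.28 without bulge) and without any 1 cKO array (0.105 to 0.119), and held without Het HG (0.00107) or Het bulge (0.00391) of set 2. The number of genes called was 89, and became 2552 when Het bulge of set 2 was left out, the array with the dissociation stress signal of 13.37, and 0 without either Het array of set 1. Keratinocyte genes averaged 13.13 in the Het HG cells of set 2, the lowest of the 12 arrays. By value 13 of 13 fibroblast, 8 of 9 melanocyte, 6 of 6 immune, 6 of 6 endothelial and 8 of 8 keratinocyte markers lay lower in set 2 of Het HFSCs. Dermal papilla (4 of 4), Schwann cell (3 of 3) and muscle and pericyte (5 of 6) markers lay lower too. Higher were 9 of 9 cell cycle genes, with a median of 1.19, and 7 of 8 hair germ genes, with a median of 0.74. Bulge stem cell genes were split, with 6 higher and 6 lower, as were adipocyte genes, with 1 and 1. The median over all genes was −0.09. Their part in the Plagl1 difference was not tested. Another probe set of Plagl1 differed by 0.42 (SE 0.82, limma adjusted p = 0.84), in the other direction.

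The probe set of H19 and Mir675 lay higher in set 2 in Het HFSCs, at 8.16 in HG and 7.76 in bulge of set 2, against 5.34 in HG and 6.94 in bulge of set 1. This difference of 1.83 did not pass (SE 0.60, limma adjusted p = 0.20). In cKO HFSCs none of the 7 genes passed, nor did any of 12589 genes (0%, with 777 at an unadjusted limma p under 0.05). Meg3 differed there by −1.07 (SE 0.38, limma adjusted p = 0.79), Igf2 by −1.43 (SE 0.68, limma adjusted p = 0.80) and Plagl1 by −0.13 (SE 0.26, limma adjusted p = 0.95).

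The interaction tests whether the set difference in cKO HFSCs departs from that in Het HFSCs. No member passed, and 1 gene did (0.00794% of 12589), H2-Ea, an MHC class II gene, named after its value was seen. The Plagl1 interaction was 1.36 (SE 0.36, limma adjusted p = 0.62), and it passed only without the Het HG array of set 2 (limma adjusted p = 0.0164). Another probe set of Plagl1 gave −1.52 (SE 1.16, limma adjusted p = 0.82), in the other direction. The Peg3 interaction was 0.31 (SE 0.42, limma adjusted p = 0.89), and that of Meg3 was −0.28 (SE 0.54, limma adjusted p = 0.92). 

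Other imprinted genes moved in both directions between HG and bulge. Of 55 listed, 48 were measured and 26 tested. In HG 5 fell and 3 rose, beside 10.7% and 8.44% of all genes, so the share that rose was near that of all genes. The fallers were led by Dcn, a proteoglycan of connective tissue, at −2.50, Sgce at −1.66, the cell cycle inhibitor Cdkn1c at −1.44 and Gatm at −1.35. The risers were the amino acid transporter Slc38a4 at 2.91, Rasgrf1 at 1.13 and Ascl2 at 0.98. The fifth that fell was Slc22a18 (−1.19), named to complete the count. The median over the 26 was −0.25. None of the 26 passed between cKO and Het.

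Several genes of the IGF pathway, through which Igf2 acts, were lower in HG than in bulge. Of 15 genes of the IGF pathway listed, 13 were tested, and in HG 7 fell and 1 rose, beside 10.7% and 8.44% of all genes, with a median of −1.39 against −0.02 over all genes. The IGF binding proteins Igfbp6, Igfbp5 and Igfbp2 differed by −3.68, −3.03 and −2.56 and the growth factor Igf1 by −1.96 on the log2 scale. The riser was the receptor substrate Irs1, by 0.66. None of the 13 passed between cKO and Het.

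Across the 12 arrays the genes with the pattern most like Peg3 were Ptn (Pearson r = 0.980), Col5a2 and Pctp, and for Ndn they were Srpx (r = 0.980), Pcolce2 and Cys1. For Meg3 they were Sfrp4 (r = 0.965), Amy1 and Nid1, and for Grb10 Amy1 (r = 0.964), Sfrp4 and Scn7a. For Plagl1 they were Irf4 (r = 0.961), Pls1 and Il22ra2, for Igf2 Cplx1 (r = 0.925), Ms4a6d and Tnfrsf1b, for Mest Chd8 (r = 0.873), Rrbp1 and Fank1, and for the probe set of H19 and Mir675 Enpp4 (r = 0.931), Dlx2 and Crlf3. Meg3 and Grb10 shared Amy1 and Sfrp4. These are the highest of about 12748 correlations each, over arrays that fall into 3 fractions, and are a description.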

How the data were processed

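Signals were measured on 12 Affymetrix arrays, 1 per sample, from 2 µg of total RNA per array. What the authors deposited is an intensity per probe set, the MAS5 signal on its linear scale, per the submitters' processing notes (version not given in the sources used here). As checked in the values, every array had been scaled to a trimmed mean of 500, with 2% cut at either end. No further normalization was added.

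The array holds 45101 probe sets. Without its 64 controls, 34945 had 1 symbol in the annotation table, 932 several and 9160 none. A gene was read by the brightest (mean log2 signal) of its probe sets that carry 1 symbol. Values under the pooled 25th percentile (20.7) were set to it, log2 was taken, and genes over the median of all arrays (84.7) on 2 or more arrays of a fit were tested in R 4.3.3 with limma 3.58.1 (lmFit, then eBayes with trend, two-sided, Benjamini-Hochberg over all genes or probe sets tested, threshold 0.05). The fit was tested on simulated data.

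HG and bulge were compared on 8 arrays with genotype by set as a block. The genotypes were compared on 12 arrays with fraction by set as a block, and the sets with fraction by genotype as a block. Set effects within a genotype, and their interaction, came from the 8 HFSC arrays with fraction as a term, so that each condition was observed by its HG and its bulge array. Whether arrays of a set share mice is not in the labels, so p-values reflect the spread among these arrays, which may be technical. The number of arrays limits the precision. Deviations of cKO and Het arrays by set correlated at 0.21 in HG, 0.13 in bulge and 0.40 in total keratinocytes over 12749 genes. The set number was used as pairing in the genotype comparison, to which these correlations apply. The pairing of fractions within a genotype and set was not checked in this way.

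The members and the lists of other imprinted, IGF pathway, cell type marker, cell cycle and dissociation stress genes were chosen with earlier results of these data known. All members are named; of the other imprinted genes past the threshold the 4 of largest change in each direction and of the IGF pathway at most 4 are named, and the 3 genes most like each member by Pearson correlation. Promoter windows came from RefSeq, build GRCm38.p6. The alternatives were quantile normalization, other floors and filters, the mean over a gene's probe sets, no trend in eBayes, no block, set contrasts fitted on 12 arrays, and leaving out arrays.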

Additional observations from a re-analysis of the deposited data

Results flagged for a closer look

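Peg3 differed between cKO and Het in opposite directions in bulge cells and total keratinocytes. The bulge differences were 0.71 in set 2 and 0.80 in set 1, and those of total keratinocytes −0.63 in set 2 and −0.44 in set 1, so the means differ by 1.29. Each direction rests on 2 pairs of arrays, and the difference was not tested.

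Peg3 also differed between set 2 and set 1 in opposite directions in these fractions. The bulge differences were 0.02 in cKO and 0.11 in Het, and those of total keratinocytes −0.62 in cKO and −0.43 in Het, so the means differ by 0.59. The bulge differences are close to 0, and the difference was not tested.

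Dlk1, which was not tested for low signal, was lower in cKO than in Het HG cells, with differences of −0.12 in set 2 and −1.49 in set 1. It was higher in cKO bulge cells, by 1.81 in set 2 and 0.32 in set 1, and in cKO total keratinocytes, by 0.53 in set 2 and 0.96 in set 1. HG minus bulge in this effect was −1.87 and HG minus total keratinocytes −1.55. Neither was tested, all but 1 of the values behind them lay under the pooled median of all arrays, and the cKO HG value of set 1 was at the floor.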

How the results depend on the processing

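Between HG and bulge, the calls of Peg3 and Ndn held in 12 of 12 other settings, that of Meg3 in 11 of 12 (limma adjusted p = 0.0504 with the mean of all probe sets), that of Plagl1 in 10 of 12, that of Igf2 in 4 of 10 and that of Grb10 in 2 of 11. No value of a called member changed direction in any setting run for it. The Meg3 call between sets held in 3 of 14 settings and the Plagl1 call in Het HFSCs in 5 of 16. The cause of the lost calls was not tested.

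The number of genes called between HG and bulge was 2414, and became 648 with no filter, 1586 with eBayes without trend, 1688 with no replicate block and 1201 to 2807 on leaving out 1 condition. Between set 2 and set 1 it was 650, and became 297 with the floor at the pooled median, 0 with no filter, 141 with the mean of all probe sets, 35 with eBayes without trend, 233 with no replicate block and 10 (without Het total keratinocytes) to 661 on leaving out 1 pair. In Het HFSCs it was 89, and became 26 with the floor at the pooled median, 0 with no filter, 20 with the mean of all probe sets, 0 with eBayes without trend and 0 to 2552 on leaving out 1 array. In cKO HFSCs it was 0 by limma, and became 0 to 92 on leaving out 1 array. For the interaction it was 1, and became 0 with no floor, the floor at the pooled median, no filter, the filter at the pooled 75th percentile, averaged probe sets, eBayes without trend or all 12 arrays, and 0 to 994 on leaving out 1 array. Between HFSCs and total keratinocytes it was 2177, and became 1260 with no filter, 1429 with HG arrays alone, 1436 with no replicate block and 850 to 2806 on leaving out 1 condition. Between cKO and Het it was 0 in all settings run, no replicate block included.

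With 1 array per genotype, fraction and set, each test takes its spread from other conditions. Signals near the floor limit Igf2, Dlk1 and Mest.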

Other observations

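Of 26 other imprinted genes tested between sets over all fractions, 1 fell and 1 rose in set 2. Over all genes 3.1% fell and 2% rose, so these counts were near the share of all genes. Rasgrf1, an exchange factor for Ras, fell by 1.54 on the log2 scale (SE 0.35, limma adjusted p = 0.0381). Commd1 rose by 0.60 (SE 0.12, limma adjusted p = 0.0318). In Het HFSCs Rasgrf1 fell by 2.62 (SE 0.44, limma adjusted p = 0.0371) and the transcription factor gene Ascl2 fell by 1.97 (SE 0.32, limma adjusted p = 0.0360). They were 2 of 26 tested, beside 0.643% of all genes that fell there.

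Of the IGF pathway genes, Igf1 fell in set 2 by 1.32 (SE 0.24, limma adjusted p = 0.0261) and the insulin receptor gene Insr by 0.99 (SE 0.15, limma adjusted p = 0.0181). They were 2 of 13 tested, beside 3.1% of all genes that fell. In Het HFSCs Igf1 fell by 1.94 (SE 0.34, limma adjusted p = 0.0441), 1 of 13 tested, beside 0.643% of all genes that fell. These calls come from comparisons whose counts moved widely when single arrays were left out.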
